A study of Solanum lycopersicum with 12 samples.

Results

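Sustained clones are the array features that stood at least 2-fold away from equal signal, always on the same side, on all 12 arrays of a salt-stress time course in tomato roots. They were found by averaging each run of 3 adjacent spots to 1 clone and keeping clones with an uncentred log2 ratio of 1 or more on all 12 arrays, or of -1 or less on all 12. Of the 3018 clones measured on all arrays, 146 met this rule, 76 on the positive side and 70 on the negative side, which are 2.52% and 2.32% of the clones tested. The rule leaves out 2 clones of AOS and 2 of GS2 that also passed the threshold. The values that chose the clones are the log2 ratios themselves, so their distance from 0 is a description here and was not tested.

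The study compared seedlings of LA2711, a salt-tolerant genotype, and ZS-5, a salt-sensitive one, after 30 min, 2 hr and 6 hr of salt treatment. On every array, root RNA of treated plants was hybridised together with root RNA of control plants of the series, and each of the 6 conditions has 2 arrays with the dyes swapped. The sources used here do not state the salt, its dose, the age of the seedlings or the number of plants behind an RNA. No time 0 was used, so the first value of the course is the one at 30 min. A dye-swapped pair counts as 1 replicate, and nothing in the labels says that plants of different times were grown separately, so each p-value reflects the spread among these 6 conditions alone, part of which may be technical. All 12 arrays run the same way, but which of the treated and control RNAs is the numerator is not settled. A positive and a negative side are therefore spoken of, and neither is called induction or repression. The labels name root tissue, which was not checked against markers here, since only 38 genes carry a name and no level of a single RNA is given by a ratio. In such bulk RNA, fewer cells of a type and less RNA per cell cannot be told apart.

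Salt reaches roots first as an osmotic stress, which limits water uptake, and then as an ionic stress, as sodium enters the tissue. Root transcripts of hormone synthesis, transport, detoxification and metabolism are known to change within minutes to hours, many of them only for a time. The clones come from suppression subtractive hybridisation, a method that enriches cDNA more abundant in one of a pair of RNAs, so a large share of clones on such an array is chosen to differ between treated and control plants.

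The sustained clones were of more than one kind in where they lay on the array. Along the array, the mean log2 ratio repeated with a period of 108 clones, at which its correlation with itself was 0.57 across clones. The 3456 clones thus form 32 blocks, in which each clone has a place from 1 to 108. Of the sustained clones, 79 (54.1%) sat at only 3 of these places. Place 5 was negative in 32 of 32 blocks, place 6 was positive in 32 of 32, and place 8 was positive on all 12 arrays in 15 of the 28 blocks where it was measured.

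These repeated clones had values that differed little between times and, apart from a step at place 5, little between blocks. The mean over 12 arrays lay between -2.87 and -2.39 at place 5, with a median of -2.69, and between 2.90 and 3.11 at place 6, with a median of 3.02. Place 5 had means of -2.62 to -2.39 in the blocks up to spots 4873 to 4875. In the later blocks, from spots 5197 to 5199 on, they were -2.87 to -2.76. At place 8 the median was 1.31, and the first of its sustained clones was that of spots 4234 to 4236, so the earliest blocks held none. The SD between blocks was 0.046 to 0.161 at places 1 to 8, against 0.611 to 1.52 at places 11 to 108. Places 1 to 4 lay near 0, with condition medians between -0.12 and 0.21, and place 7 had a median of -1.08 and held no sustained clone. Apart from the step at place 5, each of places 1 to 8 thus held about one ratio in all blocks where it was measured.

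**Figure D1:**
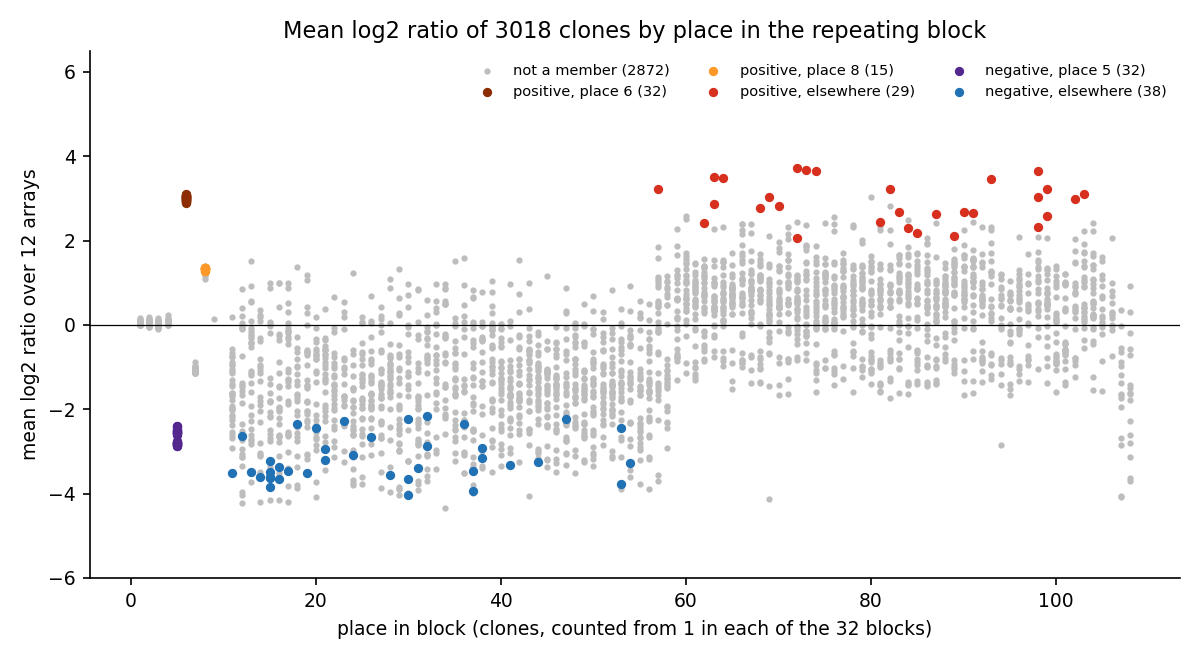
Mean log2 ratio over the 12 arrays (vertical axis) of the 3018 clones measured on all arrays against the place in the repeating block of 108 clones (horizontal axis). Sustained clones are coloured by side and place: those at places 5, 6 and 8 form tight clusters at -2.69, 3.02 and 1.31, the other negative ones lie at places 11 to 54 and the other positive ones at places 57 to 103.

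The medians at these 3 places moved little with time of treatment. Place 5 had medians of -2.73, -2.72 and -2.87 in LA2711 at 30 min, 2 hr and 6 hr, against -2.67, -2.61 and -2.63 in ZS-5. Place 6 had medians of 3.02, 2.95 and 2.83 in LA2711 at the same times, against 2.97, 3.20 and 3.06 in ZS-5. Place 8 had medians of 1.40, 1.40 and 1.17 in LA2711, against 1.27, 1.47 and 1.26 in ZS-5. All 79 clones had a range of less than 1 over the 6 condition means, as did 16.9% of all clones tested. With limma and Benjamini-Hochberg adjustment (called at an adjusted p under 0.05), 0 of the 79 were called for 6 hr minus 30 min, 2 hr minus 30 min, 6 hr minus 2 hr or LA2711 minus ZS-5, where 61%, 31.9%, 46.9% and 0% of all clones were called, and 0 of them had an unadjusted p under 0.05 in the 6 hr minus 30 min comparison. Their 95% intervals for 6 hr minus 30 min reached from -1.04 to 0.90 at place 5, from -0.89 to 0.79 at place 6 and from -0.89 to 0.69 at place 8.

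None of the array's clones with a gene name lies at places 1 to 10, and the sources used here do not say what is printed there. As background, many 2-colour arrays carry in each printed block control features for RNAs added to both samples in known unequal amounts, which give a fixed ratio whatever the tissue does. Whether these places hold such controls was not tested. They are described apart from the other 67 sustained clones, called library clones for short although their origin was not checked, of which 29 were positive and 38 negative.

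**Figure D2:**
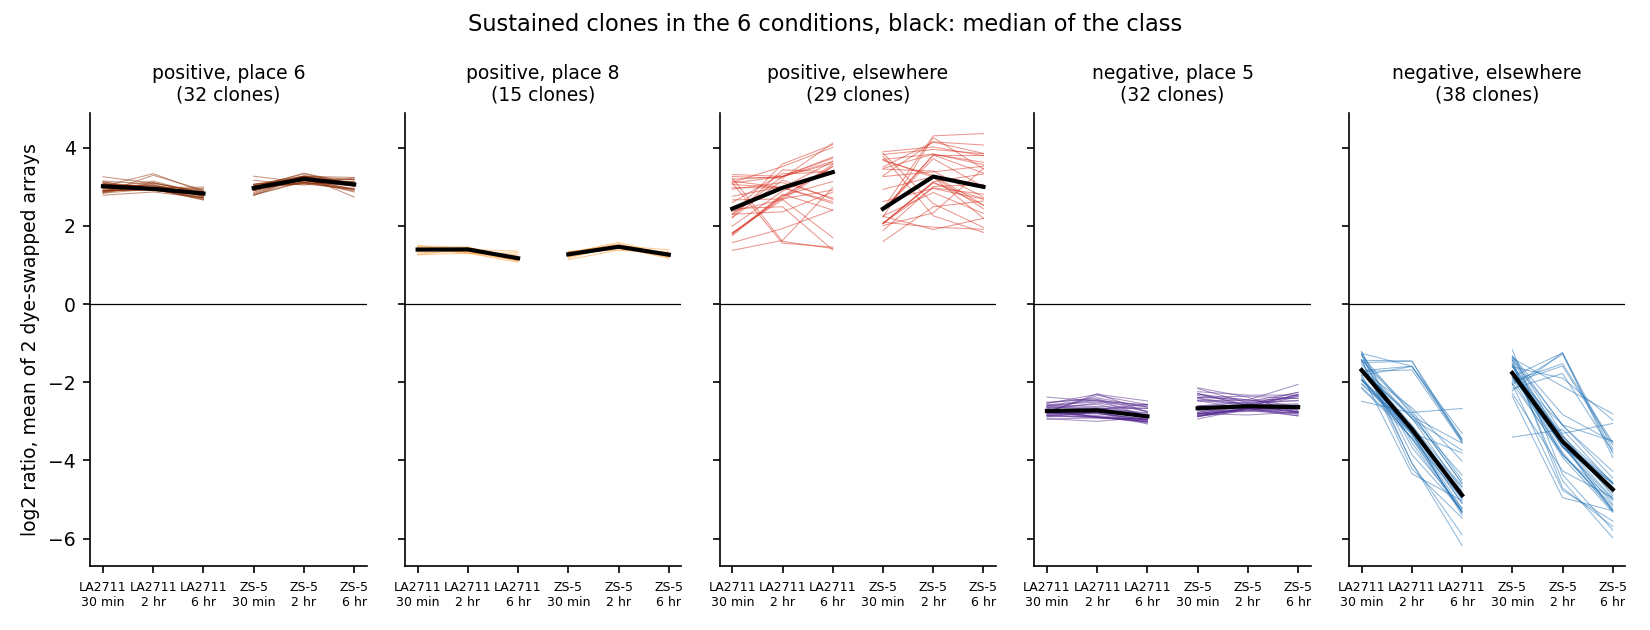
Log2 ratio (vertical axis, mean of the 2 dye-swapped arrays) of the 146 sustained clones in the 6 conditions, LA2711 left of ZS-5 in each panel, 1 line per clone and genotype, with the class median in black. The clones of places 6, 8 and 5 run flat, while the 38 other negative clones reach medians of -4.89 in LA2711 and -4.74 in ZS-5 at 6 hr.

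The 38 negative library clones, all without a gene name here, were past the threshold at 30 min and lay much farther from 0 at later times. Their median log2 ratio was -1.69, -3.20 and -4.89 in LA2711 at 30 min, 2 hr and 6 hr, against -1.76, -3.51 and -4.74 in ZS-5. At 6 hr the clone nearest to 0 stood at -2.67 in LA2711 and at -2.81 in ZS-5, and the farthest at -6.18 in LA2711 and at -5.98 in ZS-5. Both genotypes covered a like range, and 29 of the 38 clones (76.3%) lay farther from 0 at each successive time in both, as did 1303 of all 3018 clones (43.2%).

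The 5 clones with the mean farthest from 0 were those of spots 4948 to 4950, 7237 to 7239, 9439 to 9441, 6961 to 6963 and 7540 to 7542, with means over 12 arrays of -4.04, -3.94, -3.86, -3.78 and -3.66. That of spots 4948 to 4950 had -1.45 and -1.41 on the 30 min arrays of LA2711, -3.79 and -4.34 on those of 2 hr and -5.82 and -6.53 on those of 6 hr, against -2.11 and -2.60, -4.77 and -5.14, and -4.80 and -5.78 on the ZS-5 arrays of these times. In LA2711 each time stood apart from the next on both arrays, while in ZS-5 the arrays of 2 hr and 6 hr overlapped.

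In the 6 hr minus 30 min comparison, 38 of the 38 were called lower by limma with Benjamini-Hochberg adjustment, with a median difference of -3.13 and a range of -4.30 to -1.29. Among all 3018 clones, 61% were called in this comparison, 44.7% lower and 16.3% higher, with a median difference of -0.90. The clone of spots 7495 to 7497 had the largest difference of the 38. It had -1.14 and -1.43 on the 30 min arrays of LA2711, -3.51 and -4.19 on those of 2 hr and -5.30 and -5.26 on those of 6 hr, against -1.24 and -1.10, -4.23 and -4.49, and -5.33 and -6.23 on the ZS-5 arrays of these times. The 3 times did not overlap in either genotype, and the difference was -4.30 ± 0.30 (SE; limma adjusted p = 0.000117). The next largest were the clones of spots 9439 to 9441 at -4.25, 7540 to 7542 at -4.12, 7237 to 7239 at -4.06 and 4948 to 4950 at -3.84.

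That fall was not particular to the sustained clones. All 38 lie at places 11 to 54 of their blocks, spread over 22 blocks, and 81.6% of the 1382 clones measured at places 11 to 58 were called lower at 6 hr than at 30 min. The median difference over those 1382 clones was -3.09, close to the -3.13 of the sustained ones. The sustained clones' medians lay lower than those of this stretch at every time, by values the rule itself used: the stretch had medians of 0.11, -1.38 and -3.21 in LA2711 at 30 min, 2 hr and 6 hr, against -0.21, -1.33 and -3.20 in ZS-5. The limits of this stretch were set after the values were seen.

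**Figure D3:**
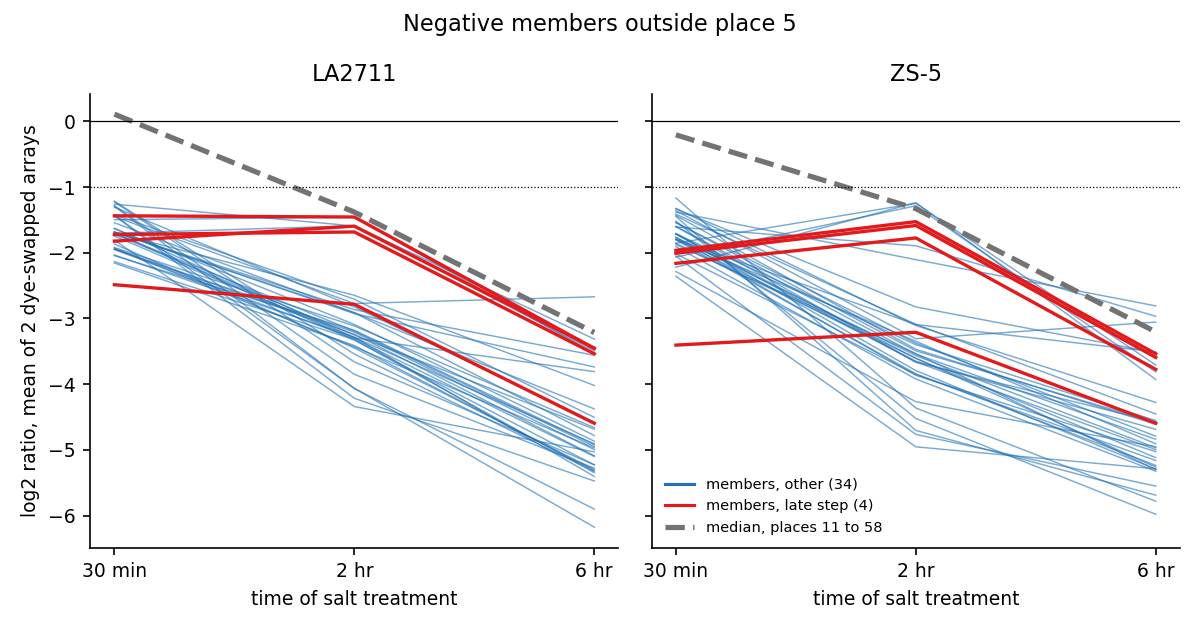
Log2 ratio (vertical axis, mean of the 2 dye-swapped arrays) of the 38 negative library clones against time of treatment (horizontal axis) in LA2711 (left) and ZS-5 (right), with the 4 late-step clones in red, the other 34 in blue, the median of the 1382 clones at places 11 to 58 dashed and a dotted line at -1. The sustained clones start below the dashed line at 30 min and 35 of 38 lie below it at 6 hr in both genotypes. The red lines move by less than 0.5 up to 2 hr, in ZS-5 toward 0.

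The course between the first and the last time was not the same in all 38. For 2 hr minus 30 min, 29 of the 38 were called lower by limma with Benjamini-Hochberg adjustment, where 31.9% of all clones were called, 28.2% lower and 3.71% higher. The 5 largest differences belonged to the same 5 clones as above, from -2.89 ± 0.27 for spots 9439 to 9441 to -2.62 ± 0.51 for spots 4948 to 4950 (SE). For 6 hr minus 2 hr, 32 of the 38 were called lower, where 46.9% of all clones were called, 37.4% lower and 9.48% higher. At places 11 to 58, 56.7% of clones were called lower in the first step and 71.5% in the second, so the sustained clones' 29 of 38 and 32 of 38 again stand beside a high share.

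The largest differences of the second step came from a different kind of clone. They belonged to the clones of spots 8167 to 8169, 9448 to 9450, 9166 to 9168, 6568 to 6570 and 2050 to 2052, at -2.30, -2.30, -2.09, -2.01 and -1.93. The clone of spots 6568 to 6570 had -1.39 and -1.48 on the 30 min arrays of LA2711, -1.31 and -1.60 on those of 2 hr and -3.31 and -3.60 on those of 6 hr, against -1.94 and -1.99, -1.49 and -1.56, and -3.44 and -3.63 on the ZS-5 arrays of these times. In LA2711 it was level over the first 2 times, while in ZS-5 it was nearer to 0 at 2 hr than at 30 min. At 6 hr it stood clear of both earlier times in both genotypes. The difference of 6 hr minus 2 hr was -2.01 ± 0.28 (SE; limma adjusted p = 0.00586).

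Another, of spots 8167 to 8169, had -1.37 and -1.62 on the 30 min arrays of LA2711, -1.31 and -1.61 on those of 2 hr and -3.49 and -3.57 on those of 6 hr, against -2.09 and -2.04, -1.23 and -1.34, and -3.51 and -4.11 on the ZS-5 arrays of these times. In ZS-5 it was nearer to 0 at 2 hr than at 30 min. A late step in both genotypes, meaning absolute values within 0.5 of each other at 30 min and 2 hr and at least 1 farther from 0 at 6 hr than at 2 hr, was found in 4 of the 38 clones, those of spots 2050 to 2052, 6538 to 6540, 6568 to 6570 and 8479 to 8481. Over all clones tested, 136 of 3018 met it. Without the 6 hr arrays of LA2711, and likewise without those of ZS-5, 0 of the sustained clones and 0 of all 3018 were called for 6 hr minus 2 hr by limma, in a fit with fewer conditions; at an unadjusted p under 0.05 these were 21 and 982 without LA2711 and 31 and 1124 without ZS-5. The step within each genotype was -2.00 in LA2711 and -2.01 in ZS-5 for spots 6568 to 6570, and -2.07 in LA2711 and -2.53 in ZS-5 for spots 8167 to 8169.

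The 29 positive library clones had a median range of 1.14 over the 6 condition means, against 3.26 for the 38 negative ones. Their median log2 ratio was 2.44, 2.98 and 3.38 in LA2711 at 30 min, 2 hr and 6 hr, against 2.44, 3.26 and 3.001 in ZS-5. Of the 29, 11 (37.9%) had a range under 1 over the 6 condition means, beside 16.9% of all clones. Except for those of spots 253 to 255 and 7711 to 7713, these 11 were clones of 1 gene, LOC778326. Farther from 0 at each successive time in both genotypes lay 7 of the 29 (24.1%), against 43.2% of all clones. All 29 lie at places 57 to 103 of their blocks, and 28 of them at places 59 to 106, where 73.3% of the 1356 measured clones had a mean above 0, while at places 11 to 58 88.8% had a mean below 0.

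LOC778326 was the only named gene among the sustained clones, with 11 of its 12 clones on the positive side. It is a protein-coding gene on chromosome 10 in the RefSeq gene table, and the tables used here give it no role. Its 11 sustained clones share a target and are not independent of each other. They had medians of 3.10, 3.11 and 3.60 in LA2711 at 30 min, 2 hr and 6 hr, against 3.51, 3.84 and 3.57 in ZS-5. The lowest of their 132 values, which the rule requires to be 1 or more, was 1.66, in ZS-5 at 6 hr.

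Of the 5 positive clones with the mean farthest from 0, 4 belonged to this gene, those of spots 2158 to 2160, 5401 to 5403, 9292 to 9294 and 2236 to 2238, with means over 12 arrays of 3.71, 3.68, 3.65 and 3.64. The clone of spots 2158 to 2160 had 3.60 and 2.64 on the 30 min arrays of LA2711, 3.69 and 3.35 on those of 2 hr and 4.50 and 3.52 on those of 6 hr, against 3.76 and 3.90, 4.34 and 3.57, and 4.22 and 3.47 on the ZS-5 arrays of these times. Times and genotypes overlapped, and the 2 arrays of a condition differed by up to 0.98. The other sustained clones of the gene had means of 3.47 for spots 7642 to 7644, 3.46 for spots 3517 to 3519, 3.22 for spots 1864 to 1866, 3.04 for spots 940 to 942, 3.04 for spots 5065 to 5067, 2.97 for spots 3868 to 3870 and 2.82 for spots 8956 to 8958.

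The clones of LOC778326 differed among themselves most at 6 hr, where the condition means spanned 2.20 to 4.07 in ZS-5. The clone of spots 3868 to 3870 had 3.64 and 2.65 on the 30 min arrays of LA2711, 3.33 and 2.64 on those of 2 hr and 3.37 and 1.78 on those of 6 hr, against 3.57 and 3.82, 3.47 and 3.02, and 2.73 and 1.66 on the ZS-5 arrays of these times. It was the only one of the 11 called for 6 hr minus 30 min, lower by -1.04 ± 0.32 (SE; limma adjusted p = 0.0354), with the ZS-5 arrays of 6 hr below those of 30 min and the LA2711 arrays overlapping. Centred on places 1 to 4, an alternative chosen after the data were seen, the limma adjusted p was 0.054 and the call was lost. The other 10 had differences between -0.68 and 0.71, and 0 of the 11 were called for 2 hr minus 30 min or for 6 hr minus 2 hr, beside 61%, 31.9% and 46.9% of all clones called in the 3 comparisons. The 12th clone of the gene, of spots 10252 to 10254, had a mean of 1.40 and stood at 0.56 and 0.54 on the ZS-5 arrays of 6 hr, and so was not sustained.

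**Figure D4:**
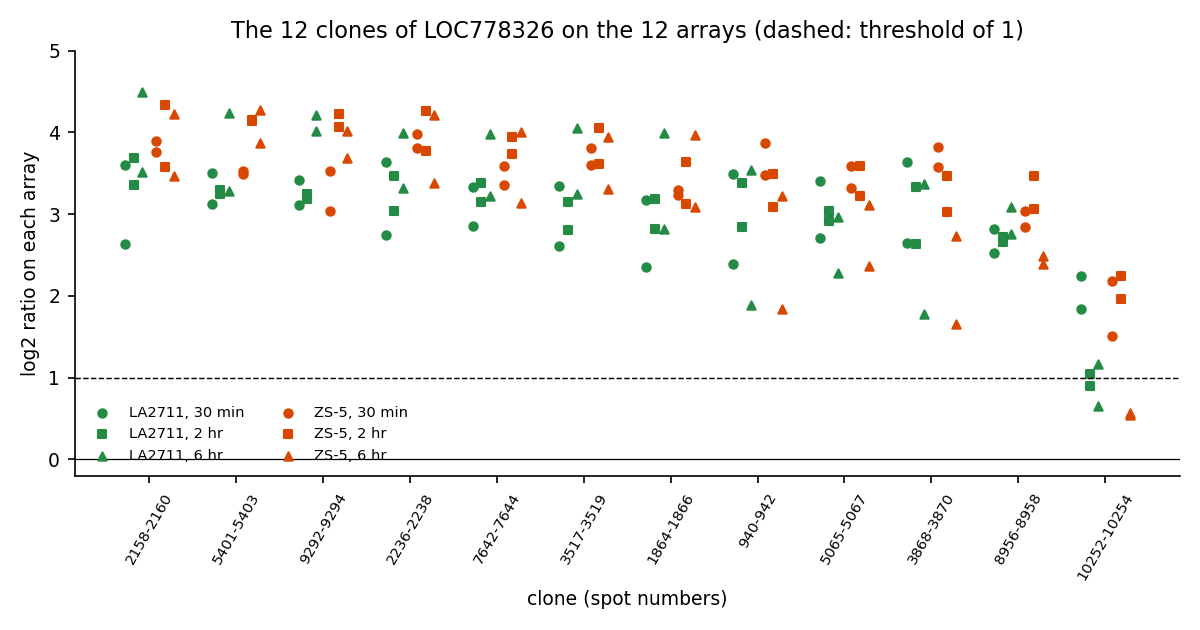
Log2 ratio on each of the 12 arrays (vertical axis) of the 12 clones of LOC778326 (horizontal axis, by spot numbers), LA2711 left of ZS-5 within a clone, with symbols for the 3 times and the threshold of 1 dashed. The 11 sustained clones lie at 1.66 or above, and the clone of spots 10252 to 10254 falls below 1 at 6 hr on both ZS-5 arrays.

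The 18 unnamed positive library clones had medians of 2.22, 2.74 and 3.06 in LA2711 at 30 min, 2 hr and 6 hr, against 2.24, 2.99 and 2.76 in ZS-5. For 6 hr minus 30 min, 9 of the 29 positive library clones were called higher and 3 lower by limma, beside the 16.3% and 44.7% of all clones. At places 59 to 106, 33.1% were called higher and 14.5% lower. None of the 11 sustained clones of LOC778326 was called higher. The 9 called higher therefore all belong to the 18 unnamed clones, beside the 33.1% of the stretch they come from.

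The largest difference upward was that of the clone of spots 4075 to 4077, which is also the fifth of the positive clones farthest from 0, with a mean of 3.51. It had 2.39 and 2.22 on the 30 min arrays of LA2711, 3.72 and 3.45 on those of 2 hr and 4.19 and 3.97 on those of 6 hr, against 2.59 and 2.29, 4.37 and 4.24, and 4.60 and 4.12 on the ZS-5 arrays of these times. Both later times stood above 30 min in both genotypes, and the difference of 6 hr minus 30 min was 1.85 ± 0.29 (SE; limma adjusted p = 0.00231). The next were spots 5110 to 5112 at 1.53, 8626 to 8628 at 1.49, 9643 to 9645 at 1.47 and 7747 to 7749 at 1.41.

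For 2 hr minus 30 min, 6 of the 29 were called higher and 2 lower, beside 3.71% and 28.2% of all clones and 7.15% and 3.54% of those at places 59 to 106. The largest differences upward were those of spots 4075 to 4077 (1.57), 9565 to 9567 (1.39), 4519 to 4521 (1.32), 7747 to 7749 (1.18) and 4399 to 4401 (1.14). For 6 hr minus 2 hr, 1 of the 29 was called, higher, beside 9.48% of all clones and 19.6% of those at places 59 to 106. It was the clone of spots 5110 to 5112, which had 1.62 and 1.13 on the 30 min arrays of LA2711, 1.81 and 1.45 on those of 2 hr and 3.16 and 2.80 on those of 6 hr, against 1.91 and 2.12, 2.52 and 2.14, and 3.80 and 3.15 on the ZS-5 arrays of these times. It was higher at 6 hr than at 2 hr by 1.25 ± 0.26 (SE; limma adjusted p = 0.0130), and it was the only positive clone with a late step in both genotypes.

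A pair of positive clones ran the other way, with the highest values at 30 min. The clone of spots 9637 to 9639 had 3.55 and 2.90 on the 30 min arrays of LA2711, 1.92 and 1.29 on those of 2 hr and 1.71 and 1.14 on those of 6 hr, against 3.55 and 4.17, 2.79 and 2.35, and 2.13 and 1.79 on the ZS-5 arrays of these times. The 30 min arrays stood above all later ones in both genotypes, and 6 hr minus 30 min was -1.85 ± 0.27 (SE; limma adjusted p = 0.00187). The other, of spots 6772 to 6774, had a difference of -1.79 ± 0.27 (SE; limma adjusted p = 0.00195). These were the only 2 of the 29 with an early peak, meaning at least 0.5 farther from 0 at 30 min than at either later time in both genotypes, as were 21 of all 3018 clones.

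The direction of these time differences depends on how the arrays are scaled. Over all 3018 clones, the median log2 ratio was 0.20, -0.33 and -1.03 in LA2711 at 30 min, 2 hr and 6 hr, against -0.02, 0.01 and -0.88 in ZS-5, while places 1 to 4 lay near 0 throughout. Centring each array on its median therefore raised all 6 hr values: it called 78 of the 79 clones at places 5, 6 and 8 higher at 6 hr than at 30 min, and 8 of the 11 of LOC778326, and left 34 of the 38 negative library clones called lower with a median of -2.12. Quantile normalisation, which gives all arrays one distribution of values, turned the median of the 38 to 0.96, with 16 called higher and 0 lower, and called 32 of 32 clones at place 5 higher with a median of 3.26. Centring on places 1 to 4 left the 38 called lower with a median of -3.12, and 8 of the positive library clones called higher and 2 lower.

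**Figure D5:**
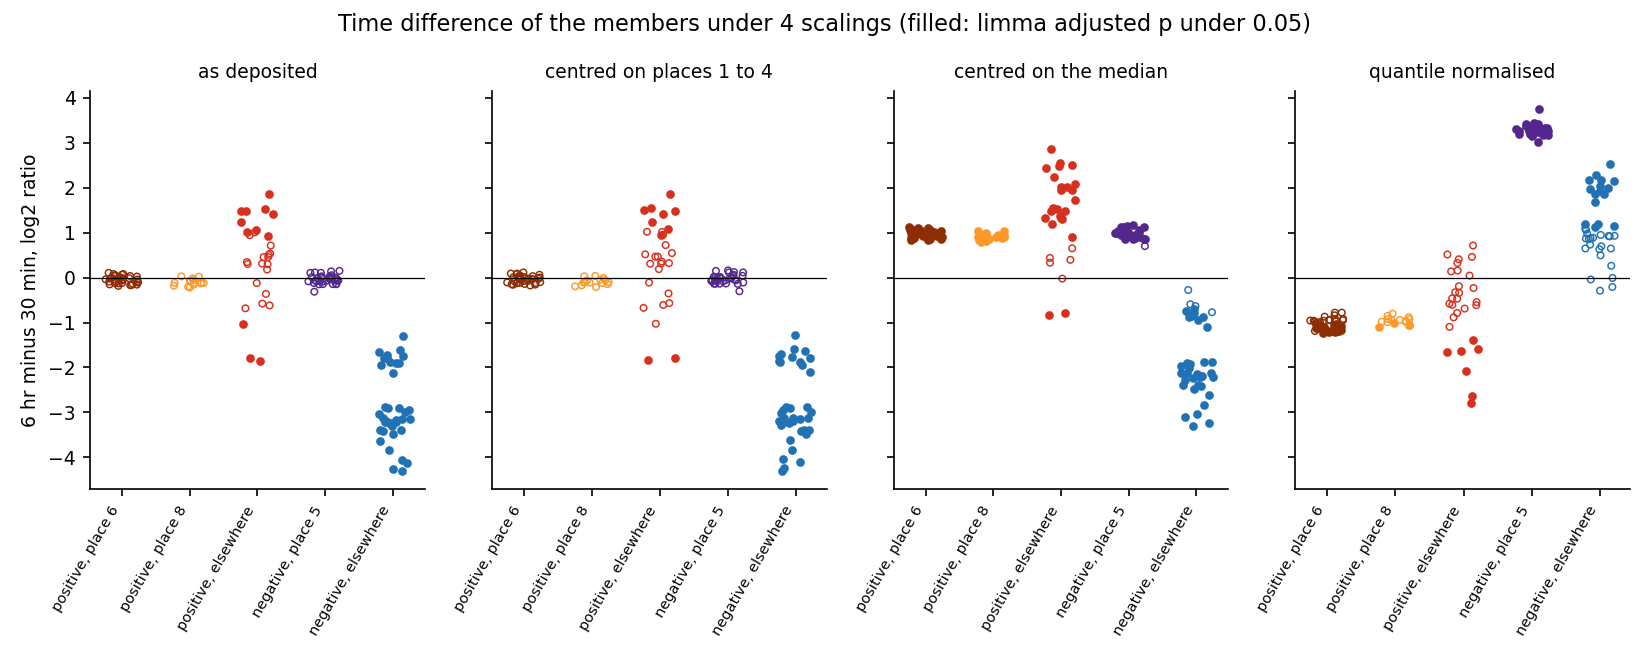
Difference of 6 hr minus 30 min in log2 ratio (vertical axis, mean of both genotypes) for each sustained clone by class (horizontal axis), with the values as deposited and under 3 other scalings, filled where the limma adjusted p was under 0.05. The clones of places 5, 6 and 8 lie near 0 as deposited and away from 0 after median centring or quantile normalisation. Under quantile normalisation the median of the 38 negative library clones changes sign, to 0.96, while single clones need not.

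In the fit of the 6 condition means, LA2711 and ZS-5 were not told apart over all times in any sustained clone. A difference confined to 1 time was not tested. For LA2711 minus ZS-5 over the 3 times, 0 of the 146 were called by limma with Benjamini-Hochberg adjustment, where 0% of all clones were called, and 4 of the 146 and 208 of all clones had an unadjusted p under 0.05. The smallest adjusted p among the sustained clones was 0.588, for spots 9637 to 9639, with means of 2.08 in LA2711 and 2.80 in ZS-5 and a difference of -0.71 (95% interval -1.27 to -0.16). The other 3 were spots 5110 to 5112 with -0.61, 6772 to 6774 with -0.59 and 2749 to 2751 with -0.69, chosen by their p. All 11 clones of LOC778326 were lower in LA2711, by a median of -0.31 and a range of -0.54 to -0.12, with a smallest adjusted p of 0.777. This direction was not particular to the gene. Differences at the repeated places ran from -0.33 to -0.06 at place 5 and from -0.25 to 0.02 at place 6. Intervals over the 67 library clones reached from -1.34 to 1.35, so differences of that size between the genotypes were not shown to be absent.

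The dye that carried the treated RNA moved many of these values. Their side could not change with the dye, because the rule asks for the same side on all 12 arrays. The median of the 29 positive library clones was 2.99 with treated RNA in Cy5 and 2.59 with it in Cy3, and that of the 38 negative ones was -3.11 in Cy5 and -3.50 in Cy3. The Cy5 minus Cy3 difference was called higher by limma in 81 of the 146 sustained clones and lower in 0, beside 73.9% and 0.464% of all clones, 74.4% in all. It differed along the array: its median at places 1 to 8 was 0.46 to 0.73 in blocks 1 to 12 and -0.09 to 0.29 in blocks 13 to 32. Averaging a dye-swapped pair balances this difference within each condition.

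At the edge of the rule, the positive clones just inside were 3 clones of place 8, of spots 6178 to 6180, 5854 to 5856 and 9094 to 9096, with lowest values of 1.01, 1.01 and 1.02. Just outside were 2 more of place 8, of spots 6502 to 6504 and 7798 to 7800, at 0.996 and 0.982, and the clone of spots 9649 to 9651 at 0.921. On the negative side, the clones of spots 1042 to 1044, 7495 to 7497 and 9448 to 9450 were just inside, at -1.06, -1.10 and -1.12. Just outside were a clone of MT2, a metallothionein that binds metal ions (spots 8869 to 8871, -0.9996), the clone of spots 2683 to 2685 (-0.995) and AADC1B, an amino acid decarboxylase (spots 4906 to 4908, -0.993).

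The array's other named genes were read in 12 groups of genes defined by symbol, covering hormone synthesis, transcription factors, defence, transport, peroxide handling, metallothioneins, plastid function, amino acid and carbon metabolism, ammonium assimilation, S-adenosylmethionine synthesis and heat shock. Of their 56 measured clones, 4 (7.14%) were past the threshold on all 12 arrays, beside 150 of all 3018 (4.97%). Those 150 include the 79 clones at places 5, 6 and 8, where no named clone lies. The share among clones of the other places is therefore lower than 4.97%. These were 2 clones of AOS, allene oxide synthase of jasmonate synthesis, and 2 of GS2, a plastid glutamine synthetase. The AOS clones lay on opposite sides, with means of -3.14 for spots 805 to 807 and 2.82 for spots 1540 to 1542. Some other AOS clones of the array changed sign between 30 min and 2 hr. Both GS2 clones were positive. AOS and GS2 are left out by the rule, so 0 of the groups held a sustained clone. Next came AADC1B (mean -3.52), MT2 (-2.61) and LOC543942 (-4.21), each past the threshold on 11 of 12 arrays. ERF3, an ethylene response factor (-2.25), LKT1, a potassium channel (1.46), PSBR, a photosystem II protein (-3.78), PSY2, a phytoene synthase of carotenoid synthesis (-2.23), LOC543878 (2.39) and LOC544267 (1.72) were past it on 10.

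For the 56 unnamed library clones, the nearest named clone was found by the root mean square difference over the 12 arrays, as a description. Of the 38 negative ones, 14 were nearest to the AOS clone of spots 805 to 807, with 13 under 0.5 log2 units, and the closest, spots 436 to 438, differed by 0.14. AADC1B was nearest for 13, with 9 under 0.5, ERF3 for 7, MT2 for 3 and AAP2 for 1. Of the 18 positive ones, 10 were nearest to a clone of LOC778326, with 2 under 0.5, and 4 to GS2. A small difference says that 2 clones had like ratios on these arrays, and says nothing of a shared gene or function.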

How the data were processed

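The authors deposited 1 log2 ratio per spot and array, and per the labels each array carried treated and control root RNA in Cy5 and Cy3, swapped between the 2 arrays of a condition. How they were scanned, background-corrected and normalized is not stated in the labels. Where Cy5 carried the treated RNA, 100.0% of inverse ratios had 3 decimals, and where Cy3 did, 100.0% of the ratios themselves, so all arrays run the same way. The 366 spot values at the ratio limits were left out. No intensities were used, so the depth behind a ratio is unknown, and precision is limited by how many arrays there are. All 12 value columns were used.

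Runs of 3 spots were averaged to 3456 clones, of which 438 were not measured on all arrays. The block length was taken as the lag of best self-correlation among lags up to 200 clones. Pair means of the 6 conditions were fitted uncentred with limma 3.58.1 (R 4.3.3; lmFit and eBayes, 2-sided) on time and genotype, with Benjamini-Hochberg adjustment over 3018 clones, called at an adjusted p under 0.05; the dye difference was tested against 0. The RefSeq gene table held 37 of the 38 named genes, matched by ID.

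The members, gene groups and comparisons were chosen with earlier results of these data known. The text names every named member with its gene's other clones, per side the 5 members farthest from 0 and the 3 just inside and outside the threshold, and per test on time or genotype the 5 called members with the largest difference in each direction. For dye orientation only counts are given. Clones named beyond this are said to be chosen by their values or belong to a class whose members are all named.

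Data were simulated over 3018 clones, 200 of them with known changes of 1 or of 2 on the log2 scale. Of these changes, the test of 6 hr minus 30 min found 1% and 44%, 2 hr minus 30 min 0% and 36%, 6 hr minus 2 hr 1% and 46%, LA2711 minus ZS-5 25% and 57%, and dye orientation 97% and 100%. The tests on time and dye called a larger share of the real clones than was changed here, so these percentages need not hold for them. Alternatives changed the threshold, spot averaging, scaling and the arrays used.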

Additional observations from a re-analysis of the deposited data

Results flagged for a closer look

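Among 31 clones named for a test or belonging to LOC778326, 3 steps of time were checked for opposite directions in the genotypes, with every LA2711 array pair of like dye moving one way and every ZS-5 pair the other. This was seen 7 times, and the difference between genotypes was not tested. The share of all tested clones with such opposite steps was not counted. Whether 7 is more than other clones of the array would give is therefore not known, and no genotype difference is drawn from it. For 6 hr minus 2 hr opposite steps were seen in 5 clones of LOC778326, which share a target. The step was 0.49 in LA2711 and -0.11 in ZS-5 for spots 2158 to 2160 (a difference of 0.60), 0.40 and -0.23 for spots 2236 to 2238 (0.62), 0.67 and -0.21 for spots 3517 to 3519 (0.88), 0.23 and -0.82 for spots 8956 to 8958 (1.05), and 0.90 and -0.29 for spots 9292 to 9294 (1.19), LA2711 first in each. For 6 hr minus 30 min the clone of spots 8956 to 8958 had 0.25 in LA2711 and -0.50 in ZS-5 (0.75). For 2 hr minus 30 min the negative clone of spots 9166 to 9168 had -0.33 in LA2711 and 0.61 in ZS-5 (-0.94).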

How the results depend on the processing

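The number of sustained clones followed the threshold: on the positive side 45 at a threshold of 2 and 136 at 0.5, and on the negative side 23 and 150, against 76 and 70. Using the arrays of one repeat number alone gave 79 to 107 positive and 74 to 110 negative clones, where fewer arrays must pass. Without block places 1 to 10, chosen after seeing the data, 29 and 38 were left by construction. Among sustained clones, median centring called 136 for 6 hr minus 30 min and 19 for 6 hr minus 2 hr, against 50 and 33, and quantile normalisation called 73 and 0. Quantile normalisation turned the clone of spots 4948 to 4950 to 0.26 for 6 hr minus 30 min and to 0.033 for 2 hr minus 30 min; the cause was not tested. Leaving out 1 condition or 1 repeat number gave 37 to 52 calls for 6 hr minus 30 min, 0 to 33 for 6 hr minus 2 hr, and 14 to 39 for 2 hr minus 30 min, with 23 without LA2711 at 30 min and 14 without ZS-5 at 30 min, against 37. For dye orientation, leaving out a condition gave 67 to 85 calls, quantile normalisation 0 and centring on places 1 to 4 20, against 81. With the 12 arrays as samples and the repeat number as a replicate block, 56, 45, 41 and 2 sustained clones were called for 6 hr minus 30 min, 2 hr minus 30 min, 6 hr minus 2 hr and LA2711 minus ZS-5, and 55, 45, 37 and 0 without the block. Arrays of one repeat number deviated with correlations of -0.56 to 0.86, and those of one dye with 0.45 to 0.86. Repeat number and dye went together in every condition but ZS-5 at 30 min. These correlations therefore cannot show whether the number pairs the samples. The recomputed values cover the single clones named for a test and the counts of called library clones without block places 1 to 10. Of these, 392 kept direction and call, or a like count, and 76 kept the direction and lost the call. Signal over background is not known here.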
